A study of Mus musculus with 11 samples.

Results

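The genes described here are Cd14 and the Toll-like receptors Tlr1 to Tlr9, 10 genes chosen by their symbols from the 54532 genes of a pancreas count table and the 46078 genes of an adipose count table, and all 10 were listed in both. The samples came from male wild-type mice aged 16 weeks, labelled C57BL/6 (C57BL/6J in the study's methods). Control mice ate a chow diet with 10 kcal% fat for 12 weeks and received saline, and mice with obesity-related alcohol-induced acute pancreatitis (OA-AP) ate a diet with 60 kcal% fat for 12 weeks and received 2 intraperitoneal injections of ethanol, each of 2 g/kg, 1 h apart. Tissue was collected 12 h after the first injection. There were 2 control and 3 OA-AP libraries of the pancreas, and 3 control and 3 OA-AP libraries of epididymal adipose tissue. Whether each library came from 1 animal or from a pool is not given in the sources used here, so p-values measure only the spread between libraries. Diet and ethanol differed together between the groups, so their contributions cannot be told apart, and no library here is from an obese mouse without ethanol.

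Toll-like receptors are membrane proteins that bind molecules of bacteria and viruses, and some also bind proteins released from injured tissue. Those on the cell surface (Tlr1, Tlr2, Tlr4, Tlr5 and Tlr6) mainly bind bacterial lipids and proteins, whereas those in endosomes (Tlr3, Tlr7, Tlr8 and Tlr9) bind nucleic acids. CD14 has no signalling domain of its own, and it hands lipopolysaccharide (LPS) to the complex of TLR4 and MD-2. Most of the receptors signal through the adaptor MyD88 to NF-kB, and macrophages, neutrophils and adipocytes are among the cells that express them.

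The pancreas libraries held 14716716 and 14380578 counts in control mice and 14465769, 14188832 and 17238919 in OA-AP mice, and the adipose libraries held 20825177 to 27928097. The labelled tissues carried their defining markers. Of 16 acinar markers, the digestive enzyme genes of the exocrine pancreas, all were detected in each pancreas library, where they took 47.3% to 64.5% of the counts and Ctrb1 was the most abundant of them. The 8 adipocyte markers, with Fabp4 the most abundant, took 3.16% to 3.6% of the counts in each adipose library. Adipose control library 2 stood apart in that acinar markers took 0.83% of its counts, against 0.00172% or less in the other adipose libraries, and the calls of the 10 genes, of their pathway lists and of the cell type markers in adipose tissue are therefore also given without it.

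In adipose tissue, 4 of the 10 genes rose in OA-AP, namely Cd14, Tlr1, Tlr2 and Tlr4, and 1 fell, Tlr5. All 10 genes passed the filter on low counts. A gene was called a differentially expressed gene (DEG) when edgeR's quasi-likelihood test gave a Benjamini-Hochberg adjusted p under 0.05 over all tested genes and a fold change of at least 1.5, and by this rule 12.1% of the 15839 tested adipose genes rose and 13.0% fell. The same 5 genes were called without adipose control library 2. Scaled by library totals alone, which moved the median log2 fold change of all adipose genes from -0.01 to -0.17, Tlr2 and Tlr4 had log2 fold changes of 0.55 and 0.56, below the fold threshold, and the other 3 genes were called. Levels within a tissue are counts per 1000000 counts (CPM) scaled by TMM factors, which correct for differences in RNA composition between libraries. In bulk tissue, fewer cells of a type and less RNA per cell cannot be told apart.

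Cd14 (ENSMUSG00000051439) had the largest fold change of the 10 genes in adipose tissue. It measured 17.4, 25.6 and 31.5 CPM in control and 197, 95.1 and 91.7 CPM in OA-AP libraries. Every OA-AP library lay above every control library, and OA-AP library 1 was the highest. The group means were 24.9 ± 7.08 CPM and 128 ± 59.6 CPM (SD, n = 3 each), and the log2 fold change was 2.36 (SE 0.37, edgeR adjusted p = 0.00426).

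Tlr4 (ENSMUSG00000039005, chr4:66827584-66930284, GRCm38, plus strand), the LPS receptor, had the highest group mean of the receptors in adipose tissue per kilobase of gene length in both groups, although Tlr3 was above it in control library 1. It measured 21.6, 31.7 and 27.8 CPM in control libraries and 42.6, 45.8 and 44.7 CPM in OA-AP libraries, with no overlap. Its log2 fold change was 0.72 (SE 0.14, edgeR adjusted p = 0.00816). Within libraries, the ratio of Cd14 to Tlr4 counts was 0.806, 0.809 and 1.13 in control adipose and 4.61, 2.07 and 2.05 in OA-AP adipose, a mean difference of 1.58 on the log2 scale. This ratio needs no scaling between libraries and was not tested.

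Tlr2 (ENSMUSG00000027995, chr3:83836272-83841767, GRCm38, minus strand) pairs with Tlr1 to bind triacylated lipopeptides of bacteria and with Tlr6 to bind diacylated ones. In adipose tissue Tlr2 measured 6.79, 8.39 and 7.32 CPM in control libraries and 10.7, 13.6 and 12.1 CPM in OA-AP libraries. The groups did not overlap, and the log2 fold change was 0.70 (SE 0.15, edgeR adjusted p = 0.0107). The ratio of Tlr2 to Tlr4 counts was 0.264 to 0.315 in control and 0.252 to 0.296 in OA-AP libraries, which overlapped. Tlr1 (ENSMUSG00000044827) measured 3.28, 6.86 and 3.71 CPM in control and 10.5, 9.86 and 17.3 CPM in OA-AP libraries, again without overlap. Control library 2 was the highest of its group and OA-AP library 3 the highest of all. Its log2 fold change was 1.45 (SE 0.35, edgeR adjusted p = 0.0175), and the adjusted p was 0.0543 without control library 1, 0.0634 without control library 3 and 0.0503 without OA-AP library 3. Tlr6 was low in both groups, at 2.86 ± 0.355 CPM (SD, n = 3) in control and 3.66 ± 0.826 CPM (SD, n = 3) in OA-AP libraries, which overlapped, and was not called (log2 fold change 0.36, interval -0.18 to 0.90, edgeR adjusted p = 0.256).

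Tlr1 and Tlr6 lie side by side on chromosome 5 and share part of their coding sequence, which bears on how their reads were counted. Of the windows of 100 bases in the longest GENCODE M21 transcript of each gene, 8.85% of those of Tlr1 and 7.24% of those of Tlr6 were identical to the other gene, while no window of the other 8 genes was shared with any other gene. The longest identical run spans 229 bases, all coding, at chr5:64925537-64925765 in Tlr1 and chr5:64953828-64954056 in Tlr6 (GRCm38, minus strand). It is shown because a read that lies within it matches both genes equally, and how such reads, or pairs with a mate outside it, were assigned was not tested.
Tlr1 and Tlr6: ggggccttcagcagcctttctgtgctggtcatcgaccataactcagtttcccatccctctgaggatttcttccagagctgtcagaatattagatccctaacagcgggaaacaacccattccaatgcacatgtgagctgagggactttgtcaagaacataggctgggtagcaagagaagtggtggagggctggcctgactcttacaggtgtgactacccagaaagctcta
The study's reads were paired and longer than the windows of 100 bases, so the shares of windows do not measure how far the values of Tlr1 and Tlr6 are affected. Another limit applies to Tlr3, where an antisense gene, Gm45542, overlaps 381 of its 5207 exon bases, and the strand setting of the counting is not given in the sources used here.

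Tlr5 (ENSMUSG00000079164, chr1:182954788-182976044, GRCm38, plus strand), the receptor for bacterial flagellin, fell in adipose tissue. It measured 11.3, 12.3 and 15.6 CPM in control libraries and 6.74, 6.83 and 4.55 CPM in OA-AP libraries. Every OA-AP library lay below every control library. The log2 fold change was -1.11 (SE 0.21, edgeR adjusted p = 0.00676).

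None of the endosomal receptors passed the test in adipose tissue, and for each of them the groups overlapped. Tlr3, the receptor for viral RNA duplexes, was the most abundant, at 21.5, 27.3 and 21.9 CPM in control and 23.2, 35.2 and 31.7 CPM in OA-AP libraries (log2 fold change 0.35, interval -0.06 to 0.76, edgeR adjusted p = 0.151). Tlr7, which binds single-stranded RNA, had values of 7.76 to 13.2 CPM in control and 4.77 to 9.95 CPM in OA-AP libraries (log2 fold change -0.38, interval -1.11 to 0.34, edgeR adjusted p = 0.36). Tlr8, its neighbour on chromosome X, had values of 5.92 to 9.62 CPM in control and 4.98 to 8.41 CPM in OA-AP libraries (log2 fold change -0.02, interval -0.66 to 0.62, edgeR adjusted p = 0.96). Tlr9, which binds DNA with unmethylated CpG, was the lowest, at 1.60 to 4.11 CPM in control and 1.01 to 2.12 CPM in OA-AP libraries (log2 fold change -0.92, interval -1.96 to 0.12, edgeR adjusted p = 0.141). Of these intervals, that of Tlr3 alone includes a rise of the size seen for Tlr2 and Tlr4.

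**Figure D1:**
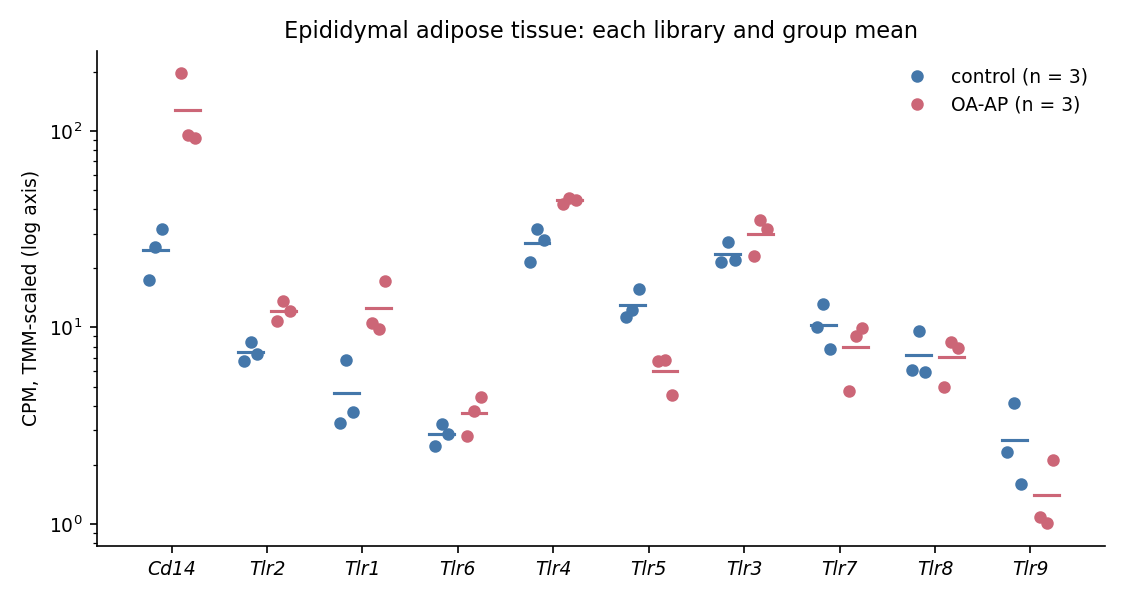
CPM of each gene in each adipose library on a log axis, with control libraries (n = 3) and OA-AP libraries (n = 3) side by side and the group mean as a line. The groups separate for Cd14, Tlr2, Tlr1, Tlr4 and Tlr5, and Cd14 reached 197 CPM in OA-AP library 1.

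The make-up of the receptor family in adipose tissue was compared per kilobase of gene length, as each receptor's share of the summed level of Tlr1 to Tlr9. In control adipose tissue Tlr4 took 22.0% ± 1.88 (SD, n = 3) and Tlr3 20.6% ± 0.89 (SD, n = 3), and the ranges of these 2 receptors overlapped. Tlr5, Tlr7 and Tlr2 followed with 12.6%, 11.5% and 11.3%, whose ranges also overlapped. In OA-AP adipose tissue Tlr4 took 28.7% ± 3.08 (SD, n = 3), Tlr3 20.4% ± 2.09, Tlr2 14.4% ± 1.12 and Tlr1 13.3% ± 3.48. Tlr5 dropped from the third place to the seventh, with 4.59% ± 1.41 (SD, n = 3), and Tlr1 rose from 6.09% ± 1.48 in control tissue. The ratio of Tlr1 to Tlr6 counts was higher by 1.13 and that of Tlr7 to Tlr4 lower by 1.15 on the log2 scale in OA-AP than in control libraries. These shares and ratios were not tested.

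**Figure D2:**
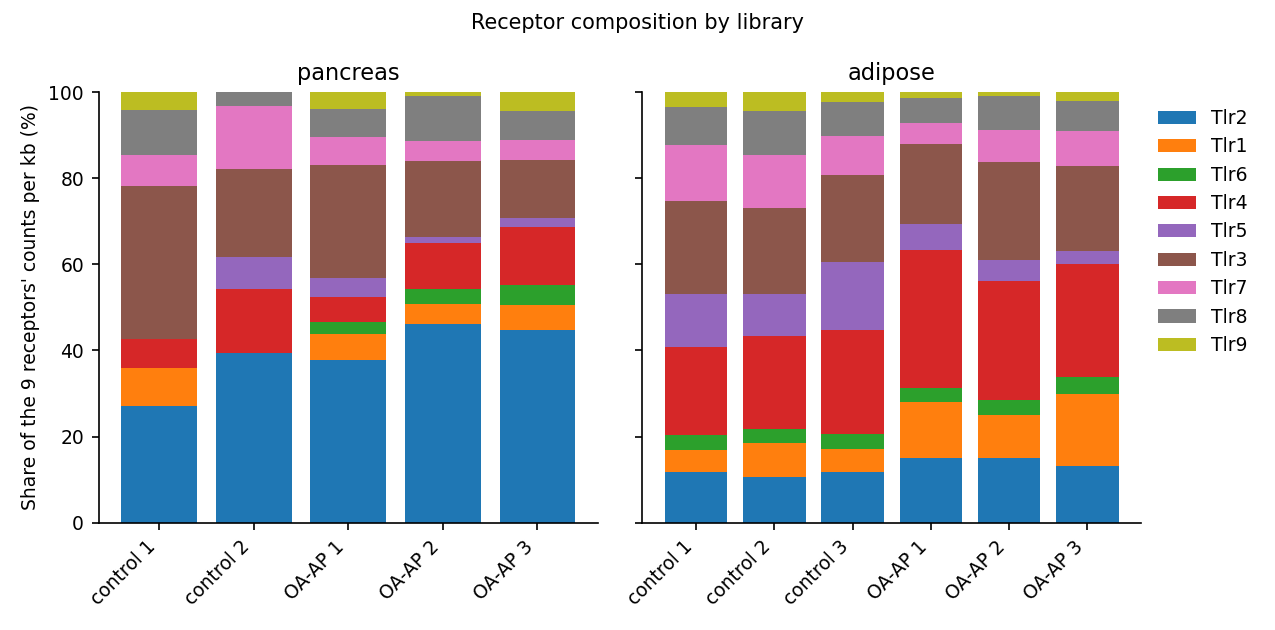
Share of each of the 9 receptors (y axis, percent of their summed level per kilobase) in each library of both tissues. In adipose tissue the Tlr4 and Tlr1 segments are wider and the Tlr5 segment narrower in OA-AP, and in the pancreas Tlr2 is the widest segment of each OA-AP library.

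In the pancreas the receptors were close to the limit of detection, and 4 of the 10 genes passed the filter, namely Cd14, Tlr2, Tlr3 and Tlr4. Tlr2 alone was called, and it rose, where 16.2% of the 12884 tested pancreas genes rose and 13.5% fell. Tlr2 had 11 and 10 counts in control and 34, 44 and 62 in OA-AP libraries, or 0.944 and 0.997 CPM against 1.79, 2.52 and 3.24 CPM. All OA-AP libraries lay above both controls. The log2 fold change was 1.37 (SE 0.42, edgeR adjusted p = 0.0392). This call lies close to the threshold: the adjusted p was 0.0501 with DESeq2, and in edgeR 0.0627 without OA-AP library 2 and 0.0574 without OA-AP library 3. With 1 control library left, the spread comes from the OA-AP libraries alone. The log2 fold change was then 1.33 without control library 1 and 1.41 without control library 2.

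Cd14 showed the widest separation of the groups in the pancreas and did not pass edgeR's test. It had 15 and 18 counts in control and 256, 163 and 1193 in OA-AP libraries. Scaled, these were 1.29 and 1.80 CPM against 13.4, 9.33 and 62.4 CPM. All OA-AP libraries lay above both controls, and OA-AP library 3 was far above the other two. The group means were 1.54 ± 0.359 CPM (SD, n = 2) and 28.4 ± 29.5 CPM (SD, n = 3), and the log2 fold change was 4.21 (SE 1.29, interval 0.78 to 7.64, edgeR adjusted p = 0.0687). Cd14 passed without OA-AP library 3 (log2 fold change 2.85, edgeR adjusted p = 1.93e-06), without OA-AP library 1 (4.55, edgeR adjusted p = 0.0373) and in DESeq2 (4.19, adjusted p = 0.000912). It did not pass without OA-AP library 2 (4.62, edgeR adjusted p = 0.0566) or without the filter on low counts (4.28, edgeR adjusted p = 0.227). With 1 control library left, the log2 fold change was 3.98 without control library 1 and 4.46 without control library 2. The ratio of Cd14 to Tlr4 counts was 2.82 and 2.47 in control and 24.4, 8.38 and 34.6 in OA-AP libraries.

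In the same tissue Tlr4 had 5 and 7 counts in control and 10, 19 and 34 in OA-AP libraries. On the CPM scale the groups overlapped, and Tlr4 was not called (log2 fold change 1.01, interval -0.51 to 2.53, edgeR adjusted p = 0.27). Tlr3 had 25 and 9 counts in control and 41, 29 and 32 in OA-AP libraries, which also overlapped as CPM (log2 fold change 0.25, interval -0.78 to 1.28, edgeR adjusted p = 0.695). With 1 control library left, its log2 fold change was 1.03 without control library 1 and -0.23 without control library 2. Scaled by library totals alone, which moved the median log2 fold change of all pancreas genes from 0.04 to 0.75, Tlr4 was called, with a log2 fold change of 1.68 (edgeR adjusted p = 0.0461) and no overlap of the groups. Cd14 was also called on that scale, at 4.85 (edgeR adjusted p = 0.042), as was Tlr2 at 2.05 (edgeR adjusted p = 0.00295), and Tlr3 was not. The other 6 receptors did not pass the filter and were not tested in the main fit of the pancreas. Without the filter all 10 genes were tested there, and Tlr2 alone was called. The fit of all 11 libraries described below kept these 6 receptors through their adipose counts. Of the 6, Tlr6 alone was called in the pancreas in that fit, against control libraries with 0 counts. Tlr8 had 5 and 1 counts in control and 7, 12 and 11 in OA-AP libraries. Tlr7 had 4 and 5 against 8, 6 and 9 counts. Tlr1 had 4 and 0 against 6, 5 and 9. These receptors thus had at most 12 counts in any pancreas library. Tlr5, Tlr9 and Tlr6 were lower still, with 3, 2 and 0 counts over both control libraries together, and 13, 12 and 15 over the OA-AP libraries together. In both groups Tlr2 and Tlr3 had the largest shares of the family per kilobase, 33.2% and 28% in control and 42.9% and 19.1% in OA-AP pancreas.

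**Figure D3:**
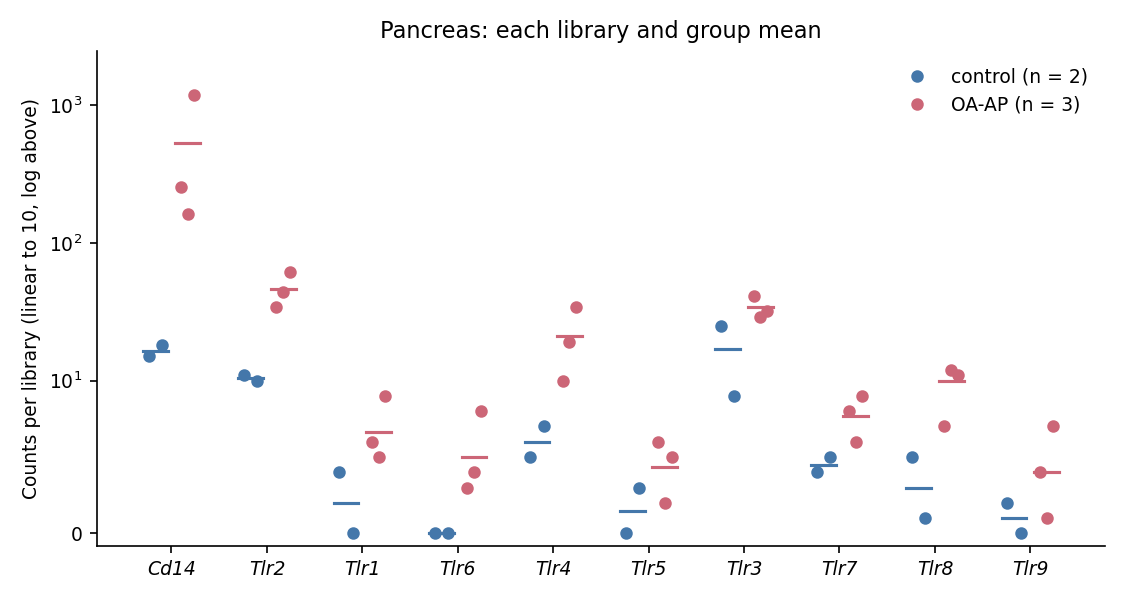
Counts of each gene in each pancreas library (y axis linear to 10 and logarithmic above), with control libraries (n = 2), OA-AP libraries (n = 3) and the group mean as a line. Cd14 reached 1193 counts in OA-AP library 3, and Tlr1, Tlr5, Tlr6, Tlr7, Tlr8 and Tlr9 had at most 12 counts in any library.

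**Figure D4:**
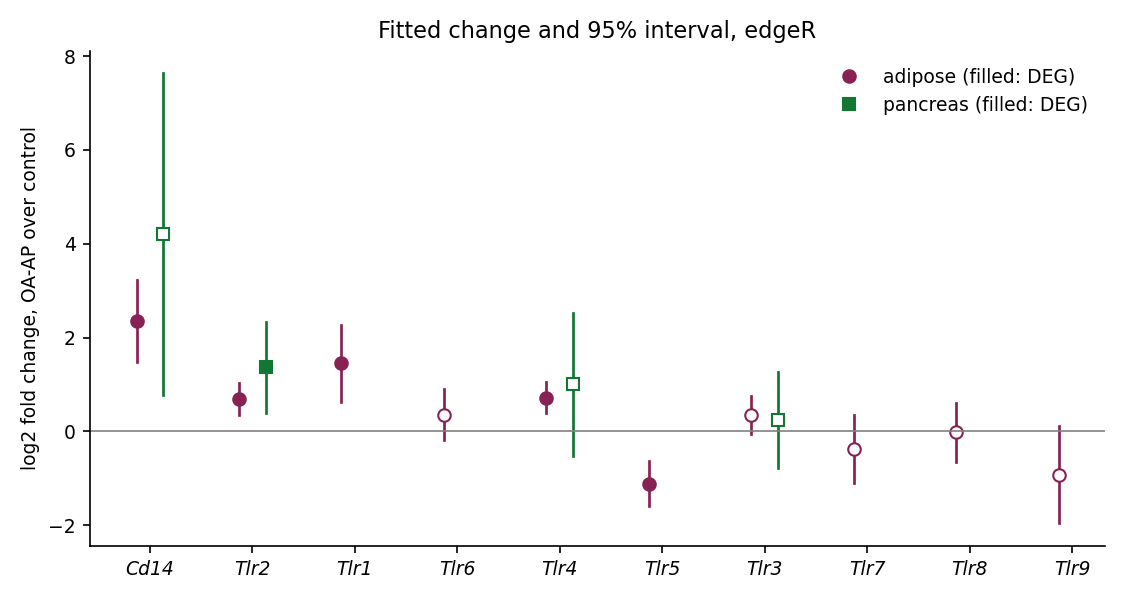
Log2 fold change of OA-AP over control (y axis) with its 95% interval from edgeR, for the 10 genes tested in adipose tissue and the 4 tested in the pancreas, where filled symbols are DEGs. Cd14 has the largest change in both tissues, and its interval in the pancreas runs from 0.78 to 7.64.

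Whether the change differed between the tissues was tested with the tissue by condition term over all 11 libraries, in which 21.3% of the 17046 genes passed an adjusted p of 0.05. This fit treats the libraries as independent, and the sources used here do not say whether same-numbered tissues of a condition came from the same mouse. Of the 10 genes only Tlr6 passed (edgeR adjusted p = 0.0442). It was in this fit through its adipose counts, and it had no count in either control pancreas library, so that its fitted change in the pancreas depends on the prior count and gives no size. For Cd14 the change in adipose tissue was smaller by 1.87 on the log2 scale, with an interval of the difference from -4.64 to 0.89 (edgeR adjusted p = 0.33). For Tlr2 the difference was -0.69 (interval -1.57 to 0.19, edgeR adjusted p = 0.262), and for Tlr4 it was -0.32 (interval -1.62 to 0.98, edgeR adjusted p = 0.77). None of these 3 differences was called. With library totals alone that of Tlr2 was called, at -1.51 (edgeR adjusted p = 0.00691), where the median difference of all genes was -0.88 and 39.1% of genes passed. Tlr5, like Tlr6, did not pass the filter within the pancreas and entered this fit through its adipose counts, and it was not called (edgeR adjusted p = 0.198).

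Between the control tissues, all genes but Cd14 were called lower in the pancreas than in adipose tissue, where 29.4% of all tested genes were lower in the pancreas by the same rule (edgeR, adjusted p under 0.05 and fold change of at least 1.5). Of these 9, Tlr1 and Tlr5 to Tlr9 did not pass the filter within the pancreas and entered the fit through adipose tissue, where they are higher, so their number supports nothing. With at least 10 counts required in every library, Tlr2 and Cd14 were left to test and Tlr2 was called. On a scale common to both tissues, Tlr4 measured 1.18 ± 0.382 CPM (SD, n = 2) in the pancreas and 14.4 ± 2.68 CPM (SD, n = 3) in adipose tissue, a log2 difference of -3.63 (SE 0.44, edgeR adjusted p = 2.3e-05). Tlr3 and Tlr2 differed least among the called receptors, by -1.95 (edgeR adjusted p = 0.000325) and -0.97 (edgeR adjusted p = 0.0222). Tlr2 was not called without pancreas control library 1 (edgeR adjusted p = 0.102), without pancreas control library 2 (0.0805) or with same-numbered tissues of a condition as a block (0.0584). Tlr6 was at least 2.62-fold lower in the pancreas when its 0 counts were replaced by 3 counts in each control library. Cd14 was not called, with 3.22 ± 0.709 CPM (SD, n = 2) in the pancreas and 13.2 ± 3.77 CPM (SD, n = 3) in adipose tissue (log2 difference -2.05, edgeR adjusted p = 0.114). It was called in DESeq2 (adjusted p = 0.00866) and without pancreas OA-AP library 3 (edgeR adjusted p = 0.0106). With library totals alone it was also called (log2 difference -4.51, edgeR adjusted p = 0.00203). That scaling moved the median log2 difference of all genes from -0.22 to -2.67 and called 90.2% of them, against 55.5% with TMM. TMM scaling assumes that most genes are alike between the groups, which is a weaker ground between tissues than within one.

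Upstream sequence is shown for the receptors that were called in the same direction in adipose tissue and are in the RefSeq table used, Tlr1 and Tlr2, beside Tlr5, which fell. The window was the 250 bases before the RefSeq start site (GRCm38.p6), trimmed where GENCODE M21 places the start further upstream. Capitals mark matches, on either strand, to a consensus motif of NF-kB, to the core motif GAGGAA of PU.1, a transcription factor of myeloid cells, or to the element GAAANNGAA of interferon regulatory factors.
Tlr1, chr5:64933564-64933808, minus strand: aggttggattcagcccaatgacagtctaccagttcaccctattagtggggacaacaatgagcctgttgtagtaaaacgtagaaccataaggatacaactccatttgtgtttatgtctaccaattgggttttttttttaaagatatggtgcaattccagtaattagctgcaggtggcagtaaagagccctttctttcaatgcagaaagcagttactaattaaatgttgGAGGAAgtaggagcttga
Tlr2, chr3:83841768-83841858, minus strand: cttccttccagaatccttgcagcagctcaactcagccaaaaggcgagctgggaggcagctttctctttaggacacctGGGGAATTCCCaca
Tlr5, chr1:182954538-182954787, plus strand: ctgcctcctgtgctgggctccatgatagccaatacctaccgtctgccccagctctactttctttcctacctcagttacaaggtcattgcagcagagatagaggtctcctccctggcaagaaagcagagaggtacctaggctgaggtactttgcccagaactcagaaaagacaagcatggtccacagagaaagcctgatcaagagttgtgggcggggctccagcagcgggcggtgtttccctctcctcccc
The untrimmed window of Tlr2 held matches to the NF-kB consensus in 1 stretch, where overlapping matches on both strands coincide, as 7.25% of 32851 RefSeq windows of this length held at least 1. Tlr1 held 1 match to the PU.1 core, which 23.3% of windows held, and none to the other motifs. Tlr5 held no match to any of them. Receptors that were not called held matches too, to the NF-kB consensus in Tlr3 and to the PU.1 core in Tlr8 and Tlr9. Matches to the interferon regulatory factor element, present in 7.13% of windows, occurred in the windows of Tlr6 and Tlr8. Tlr4 and Tlr7 were not in that table. These matches describe letters only, and no binding was measured.

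Genes that work beside the receptors were described from lists of known pathway members, each with its count of DEGs and its median log2 fold change beside that of all tested genes, 0.04 in the pancreas and -0.01 in adipose tissue. Of 62 genes of these 7 lists tested in the pancreas, 13 rose (21.0%, against 16.2% of all tested genes) and 5 fell (8.06%, against 13.5%). Of 75 tested in adipose tissue, 22 rose (29.3%, against 12.1%) and 7 fell (9.33%, against 13.0%). Without adipose control library 2, 18 rose and 4 fell there. In that fit 22.2% of all tested adipose genes were called, against 25.1%, and 51.5% of those called rose, against 48.1%. The 18 called genes of the pancreas became 13, 24 and 19 without OA-AP library 1, 2 and 3. The share of all tested genes called was then 21.7%, 32.4% and 33.9%, against 29.8%. Leaving out a pancreas control left 1, with the spread from the OA-AP libraries alone, so no count of calls is given for those fits. When libraries were scaled by their totals alone, the accessory genes, kinases and negative regulators called in the pancreas went from 2, 5 and 1 to 7, 14 and 7, and those of all 7 lists from 18 to 41, where the share of all tested genes called went from 29.8% to 49.3%. This scaling took the kinases called in adipose tissue from 6 to 3, where the share of all tested genes called went from 25.1% to 26.8%. Of the genes called there, the share that rose went from 48.1% to 32.1%. All 13 pancreas genes that rose and 1 of the 5 that fell (Irf7, but not Pik3ap1, Irak1, Ikbke or Irf1) kept their call, as did 16 of the 22 and all 7 in adipose tissue, where Ly96, Traf3, Ikbke, Ripk1, Il1rl1 and Hspd1 lost it. Among 12 accessory and coreceptor genes, 3 of 11 tested rose and 2 fell in adipose tissue (median -0.06). Tlr13, a mouse receptor for bacterial ribosomal RNA, rose from 6.96 ± 1.65 to 24.9 ± 1.85 CPM (SD, n = 3 each; log2 fold change 1.84, edgeR adjusted p = 0.000783). Ly96, which encodes the MD-2 subunit that binds LPS beside Tlr4, rose by 0.63 (edgeR adjusted p = 0.033). Lrrc59, a protein of the endoplasmic reticulum, rose by 1.34. Unc93b1, which carries the endosomal receptors out of the endoplasmic reticulum, fell by 0.63 (edgeR adjusted p = 0.0228), and Cd180, a receptor homologue of B cells, fell by 1.23 (edgeR adjusted p = 0.0314). In the pancreas 2 of 8 tested rose and none fell (median 0.63), namely Lbp, the serum protein that brings LPS to CD14, by 2.20 (edgeR adjusted p = 0.00927), and Lrrc59 by 0.67. These calls changed when single libraries were left out. In adipose tissue 2 genes were called without control library 2 (Ly96, Cd180 and Unc93b1 were lost), 2 without OA-AP library 1 and 3 without control library 3. The share of all tested adipose genes called was then 22.2%, 22.3% and 17.8%, against 25.1%. In the pancreas 1 gene of this list was called without OA-AP library 1 or 3, and 3 without OA-AP library 2.

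Of the 6 adaptors, Myd88 and Tirap rose in both tissues. Myd88, the adaptor of all the receptors but Tlr3, averaged 3.95 ± 0.233 CPM (SD, n = 2) in control and 21.3 ± 7.68 CPM (SD, n = 3) in OA-AP pancreas (log2 fold change 2.43, edgeR adjusted p = 0.00151). In adipose tissue Myd88 rose from 27.1 ± 1.74 to 83.6 ± 15.7 CPM (SD, n = 3 each; log2 fold change 1.63, edgeR adjusted p = 0.000609). Tirap, which bridges Tlr2 and Tlr4 to Myd88, rose by 2.57 in the pancreas (edgeR adjusted p = 0.00508) and by 0.76 in adipose tissue (edgeR adjusted p = 0.00249). Pik3ap1, an adaptor to phosphoinositide 3-kinase, fell by 1.20 in the pancreas (edgeR adjusted p = 0.00187). The list thus had 2 genes that rose and 1 that fell of 5 tested in the pancreas (median 0.70) and 2 that rose of 6 tested in adipose tissue (median 0.24).

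Of 17 kinases and ligases of the pathway, 3 rose and 2 fell in the pancreas (median 0.30) and 4 rose and 2 fell in adipose tissue (median -0.05), with all 17 tested in each. Ripk1 rose in both tissues, by 1.21 in the pancreas and 0.69 in adipose tissue. Ikbke, a kinase upstream of the interferon regulatory factors, fell by 1.20 in the pancreas and rose by 0.70 in adipose tissue. In the pancreas Irak4, the first kinase recruited by Myd88, rose by 1.16 and Irak1 fell by 0.72, while Tab1 rose by 0.75. In adipose tissue Map3k8, a kinase upstream of ERK, rose by 1.57, Traf3 rose by 0.71, and Tab3 fell by 1.45. Adjusted p of these genes in edgeR lay between 0.000682 and 0.0198. In place of 5 called genes, the pancreas had 2, 7 and 6 without OA-AP library 1, 2 and 3.

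Among 7 transcription factors, 1 rose and 2 fell in the pancreas (median 0.16), and none was called in adipose tissue (median 0.34). Rela, the p65 subunit of NF-kB, averaged 16.1 ± 2.47 CPM (SD, n = 2) in control and 156 ± 61.5 CPM (SD, n = 3) in OA-AP pancreas (log2 fold change 3.27, edgeR adjusted p = 0.00106). In adipose tissue, Rela passed the adjusted p (0.0153 in edgeR) but its log2 fold change of 0.35 was below the fold threshold. Irf7, which drives interferon genes downstream of Tlr7 and Tlr9, fell by 2.99 in the pancreas (edgeR adjusted p = 0.00143), and Irf1 fell by 0.92 (edgeR adjusted p = 0.0294).

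Of 12 negative regulators, 3 rose and 1 fell in adipose tissue (median 0.24), and 1 of 10 tested rose in the pancreas (median 0.42). Irak3, an inhibitory member of the IRAK family, rose in both tissues, by 1.09 in the pancreas (edgeR adjusted p = 0.037) and 0.81 in adipose tissue (edgeR adjusted p = 0.0156). Zc3h12a, an RNase that degrades cytokine transcripts, rose from 16.5 ± 1.10 to 51.8 ± 7.39 CPM in adipose tissue (SD, n = 3 each; log2 fold change 1.65, edgeR adjusted p = 0.000402). Il1rl1, the interleukin-33 receptor, rose by 0.98 and Nlrx1, a mitochondrial regulator, fell by 0.76. Il1rl1 was not called without control library 2, and 2 genes of the list were called without control library 3. In the latter fit 17.8% of all tested adipose genes were called, against 25.1%. In the pancreas 2 were called without OA-AP library 2 or 3.

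Of 11 genes of proteins described as endogenous ligands of Tlr2 or Tlr4, 7 rose and 1 fell in adipose tissue (median 1.33). In the pancreas 3 of 10 tested rose and none fell (median 0.53). The calprotectin subunits S100a8 and S100a9 rose by 4.65 and 4.59 in adipose tissue, and both are also among the neutrophil markers. Tnc, a matrix glycoprotein, rose from 14.9 ± 5.42 to 222 ± 11.7 CPM (SD, n = 3 each; log2 fold change 3.90, edgeR adjusted p = 0.000347), and Vcan, the matrix proteoglycan versican, rose by 2.65 in adipose tissue and 1.98 in the pancreas. Hsp90aa1 rose by 1.33 in adipose tissue and 0.74 in the pancreas. Saa3, a serum amyloid A gene of adipose and myeloid cells, rose by 5.62 in the pancreas (edgeR adjusted p = 0.00047) and by 4.34 in adipose tissue (edgeR adjusted p = 0.02). Its OA-AP adipose libraries differed widely, at 234.6 ± 302.8 CPM against 11.55 ± 3.467 CPM in control libraries (SD, n = 3 each). Dcn, decorin, also a fibroblast marker, was the gene that fell, by 0.91 in adipose tissue. Without adipose control library 2, Hspd1 and Saa3 were no longer called in adipose tissue.

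Among 11 other sensors of LPS and bacteria, 3 rose and 1 fell in adipose tissue (median 0.41), and 1 of 5 tested rose in the pancreas (median 0.37). Casp4, whose product binds LPS in the cytosol, rose from 15.5 ± 1.24 to 56.1 ± 6.67 CPM in adipose tissue (SD, n = 3 each; log2 fold change 1.86, edgeR adjusted p = 0.000252). Clec4e, the lectin Mincle, rose from 0.882 ± 0.458 to 17.4 ± 5.28 CPM (SD, n = 3 each; edgeR adjusted p = 0.000867). Msr1, a macrophage scavenger receptor, rose by 2.56 in adipose tissue and 2.42 in the pancreas, and Nlrc4, the inflammasome adaptor for intracellular flagellin, fell from 2.57 ± 0.625 to 1.03 ± 0.30 CPM in adipose tissue (SD, n = 3 each; edgeR adjusted p = 0.0152). Without adipose OA-AP library 2, 7 genes of this list were called in place of 4, where 27.6% of all tested genes were called against 25.1%.

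Values of immune cell markers are given beside those of Cd14 and the receptors. In the pancreas the summed level of 12 neutrophil markers was 2.66 and 3.99 CPM in control and 194, 106 and 414 CPM in OA-AP libraries, and the OA-AP libraries had the same order in Cd14. Most of this sum was Lcn2, at 178, 101 and 306 CPM, a gene that epithelial cells also express. Without Lcn2 the sum was 2.06 and 2.89 CPM in control and 15.9, 4.63 and 109 CPM in OA-AP libraries. Of 9 tested neutrophil markers Lcn2 alone was called, and Ly6g, a defining marker, was at 0 in both control libraries and at 0.247 ± 0.286 CPM (SD, n = 3) in OA-AP libraries. In adipose tissue the neutrophil sum was 27.2, 42.2 and 48.0 CPM in control and 746, 2100 and 620 CPM in OA-AP libraries, with 7 of 8 tested markers called as risen, and the highest OA-AP library was library 2 for this sum and library 1 for Cd14. Lcn2 was the most abundant of these markers in OA-AP adipose tissue. In control adipose tissue Mmp9 was above it, with means of 18.79 CPM for Mmp9 and 9.53 CPM for Lcn2. Without Lcn2 the sum was 17.7, 34.7 and 36.4 CPM in control and 194, 188 and 211 CPM in OA-AP libraries, of which library 3 was the highest. The part of these cells in the Cd14 and receptor changes was not tested.

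The summed level of 12 macrophage markers in the pancreas was 97.5 and 49.4 CPM in control and 73.8, 77.2 and 78.8 CPM in OA-AP libraries, with 2 of 12 called, Csf1r and Mertk, both of which fell. As a share of library totals the sum was 0.00772% and 0.00344% in control and 0.00971%, 0.00951% and 0.00874% in OA-AP libraries, which did not overlap. Scaled in this way 4 markers rose (Cd163, Mrc1, C1qb and Itgam) and Mertk fell, where 5843 of all 12884 tested genes rose and the median log2 fold change of all genes was 0.75, so neither is a result about these markers. In adipose tissue the sum was 1280, 1580 and 1290 CPM in control and 1370, 1630 and 2030 CPM in OA-AP libraries, with 5 of 12 that rose, such as Fcgr1 by 2.36 and Mrc1 by 1.21, and 1 that fell, Csf1r by 0.81. Lyz2 was the most abundant macrophage marker in both tissues and was not called in either. The OA-AP adipose libraries had the same order in this sum as in Tlr6 and Tlr7, and another order in the other 8 genes. B cell markers summed to 8.52, 48.2 and 15.7 CPM in control adipose and 2.80, 2.40 and 3.99 CPM in OA-AP adipose tissue, with 5 of 7 tested called as fallen, among them Cd79a, the most abundant, by 2.59. The control library with the most of these transcripts, library 2, was also the highest control in every receptor but Tlr5. Of the dendritic cell markers 2 of 8 fell, Siglech and Xcr1, and Bst2 was the most abundant. Of 6 tested T cell markers 2 fell, with Lck at 0.909 to 3.52 CPM. Fibroblast markers fell in 5 of 8 cases, with Dcn the most abundant, and none of the 8 endothelial and 6 mesothelial markers was called, with Cdh5 and Upk3b the most abundant. Without adipose control library 2 the calls of Siglech, Pax5, both T cell markers, Lum and Lep were lost, and those of the macrophage and neutrophil markers were the same in number. The part of these cells in the receptor values was not tested. Of the 8 adipocyte markers 1 rose and 1 fell, and of 3 tested acinar markers none was called. Of 8 epididymis markers, with Rnase10 the most abundant, 5 were at 0 in all adipose libraries, and their sum was at most 0.258 CPM. In the pancreas, 12 of 16 acinar markers fell and 1 rose, and 2 of 3 tested adipocyte markers (Lipe and Pnpla2) rose. Of these 3, Pnpla2 was the most abundant in OA-AP libraries (mean 130 CPM). In control libraries Fabp4 was (mean 30.82 CPM, against 18.63 CPM for Pnpla2). The adipocyte markers Adipoq, Plin1, Lep, Cidec and Pck1 were not tested there, with 2, 5, 3, 6 and 1 counts over all pancreas libraries. In the same tissue 1 of 2 dendritic cell, 2 of 8 endothelial and 1 of 8 fibroblast markers fell. No B or T cell or epididymis marker was tested there, and none of 6 mesothelial markers was called. With library totals alone, 5 of the 12 acinar calls (Amy2a5, Cpb1, Ctrb1, Ctrl and Try5) and both endothelial calls (Kdr and Emcn) were lost in the pancreas, and Cxcr2, Mmp9, Pecam1, Col3a1, Krt19 and Fabp4 were called as risen. In adipose tissue that scaling changed 1 marker call, that of Cd68, which was lost.

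**Figure D5:**
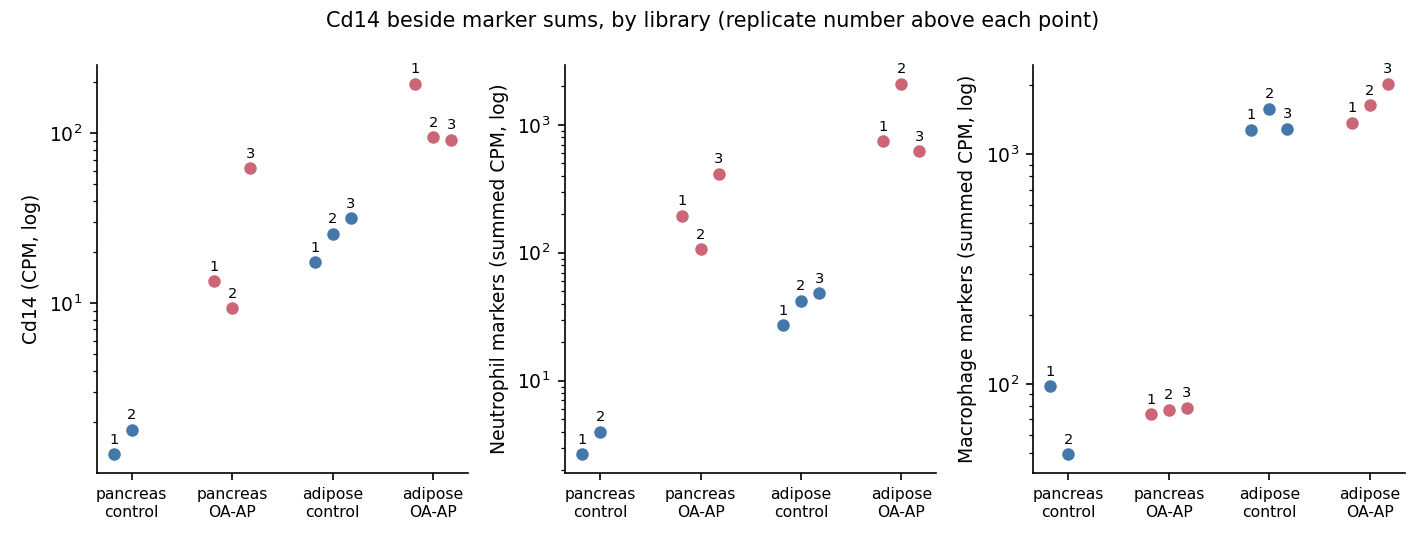
Cd14 (left), the sum of 12 neutrophil markers (middle) and the sum of 12 macrophage markers (right) in each library, in CPM scaled within each tissue on log axes, with the replicate number above each point. Cd14 and the neutrophil sum are higher in OA-AP than in control libraries of both tissues, whereas the macrophage sum overlaps between the groups on this scale.

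Across all 11 libraries, the genes whose log2 CPM followed each member most closely are given as a description. These correlations were computed over the libraries of both tissues, so the difference between tissues enters each of them along with the condition. For Cd14 they were Ier5, Med1 and Prr13 (Pearson r of 0.974 to 0.979, n = 11 libraries). For Tlr4 they were Ptpn7, Rapgef3 and Gm7809 (r of 0.987 to 0.993), and for Tlr2 1110002J07Rik, Clec4d and Fosl2 (r of 0.972 to 0.989). Tlr1 was followed by Exosc10, Alox5ap and Pilra, Tlr6 by Fermt2, Cast and Wfdc21, and Tlr5 by Chn1, Kctd15 and Kif13a. Tlr3 was followed by Ret, Pik3r3 and F13a1, Tlr7 by Ppp1r2-ps1, Cep55 and Spic, and Tlr8 by Clec4a3, Fbxw17 and Itgax, a gene of macrophages and dendritic cells. Tlr9, the lowest gene, had the weakest values, with Smcr8, F5 and Mis18a at r of 0.945 to 0.961.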

How the data were processed

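Counts of 11 libraries were analysed. The authors trimmed reads with Trim Galore 0.6.6, checked them with fastp 0.20.1, mapped them with STAR to GRCm38 and used featureCounts 2.0.1 to obtain gene counts, and deposited whole-number counts without normalization. The annotation release and the strand setting are not given in the sources used here. Gene lengths are those of the deposited pancreas table, as the authors list them.

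Samples were grouped by their labels. Nothing in the labels says that replicates came from separate mice, so p-values measure the spread between these libraries. Genes were filtered with filterByExpr, scaled by TMM and tested in each tissue with edgeR 4.0.16 in R 4.3.3 (robust quasi-likelihood, Benjamini-Hochberg adjustment). Standard errors were derived from the log2 fold change and the F statistic, and intervals are 95% intervals. The 2 comparisons across tissues used a joint fit of the 17046 genes kept from those in both tables. Ratios within a library used counts plus 0.5. Correlations used log2 CPM with a prior count of 2. Floors of 3 counts cover counting error only, since the reads carry no molecular identifiers. Tests were checked on simulated data.

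The 10 members and the lists of 7 pathway groups and 11 cell types were chosen with earlier results of these data known. Named genes were all members, up to 5 DEGs of smallest p in each pathway list and tissue (else its most abundant gene), the most abundant gene of each marker list, and the 3 genes most correlated with each member. Other marker genes named were chosen after their values were seen. Replicates of a group differed by more than counting noise (lowest chi-square per degree of freedom 6.91). Counts of the pathway lists and markers under other settings, and the neutrophil sum without Lcn2, were added after seeing the data. The alternatives were DESeq2 1.42.0, its size factors, library totals, TMM without acinar genes, no filter or 10 counts in every library, a fold change of 2 or none, the joint fit, each library left out, and replicate number as a block. Same-numbered control and OA-AP libraries did not deviate together (r of -0.162 to 0.0221). For same-numbered pancreas and adipose libraries of a condition, r was -0.0115 to 0.09.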

Additional observations from a re-analysis of the deposited data

Results flagged for a closer look

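Tlr6 passed the test of a difference between the tissues. The tissue by condition term, adipose change minus pancreas change, was -6.60 on the log2 scale (edgeR adjusted p = 0.0442 over 17046 genes). Tlr6 had 0 and 0 counts in control and 3, 4 and 8 in OA-AP pancreas, against 68, 76 and 84 in control and 54, 78 and 88 in OA-AP adipose libraries. The fitted size depends on the prior count, since the control pancreas libraries hold no count, so it gives no size. Tlr6 did not pass the filter within the pancreas, and without that filter it was tested there and not called. It was kept in the joint fit through its adipose counts. The call was lost in DESeq2, without a filter on low counts, under both blocks, and without any 1 of the 11 libraries except pancreas OA-AP library 1 (edgeR adjusted p = 0.0367).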

How the results depend on the processing

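No member's called change reversed its direction under any alternative run. Of the 10 members, 1 was called in the pancreas (Tlr2). With library totals alone 3 were called there (Tlr2, Tlr4 and Cd14), with at least 10 counts in every library 2 (Tlr2 and Cd14), and in the joint fit of 11 libraries 3 (Tlr2, Tlr6 and Cd14). Leaving out 1 pancreas OA-AP library gave 0 to 2 calls. Leaving out 1 pancreas control left 1 control library, with the spread from the OA-AP libraries alone. In DESeq2, without OA-AP library 3 and under the replicate block the 1 call was Cd14 in place of Tlr2. Under the replicate block Cd14 had a log2 fold change of 2.89 (edgeR adjusted p = 1.1e-05) and Tlr2 of 1.12 (edgeR adjusted p = 0.0597). No pancreas control has number 3, so this block leaves OA-AP library 3 without weight in the change. Without that library the values were 2.85 and 1.09, so the block is not a separate check there. In adipose tissue 5 members were called, 3 with library totals alone and 3 with a fold change of at least 2 (Tlr1, Tlr5 and Cd14 in both), 5 under the replicate block and 4 or 5 with 1 library left out. The tissue by condition term called 1 member (Tlr6), 3 with library totals alone (Tlr2, Tlr5 and Tlr6), and 0 in DESeq2, without a filter, with at least 10 counts in every library, under the replicate block, and under a block of same-numbered tissues, an alternative added after seeing the data. Leaving out 1 library gave 0 or 1, which was Tlr6 without pancreas OA-AP library 1 and Tlr5 without pancreas control library 2. Between control tissues 9 members were called, and 1 with at least 10 counts in every library, where 2 members were left to test. Leaving out 1 library gave 6 to 10, the replicate block 8 and the block of same-numbered tissues 8, without Tlr2. Library totals alone moved the median log2 fold change of all genes from 0.04 to 0.75 in the pancreas and from -0.01 to -0.17 in adipose tissue, and the share of DEGs that rose from 54.5% to 92.0% and from 48.1% to 32.1%. The counts of 0 to 62 per pancreas library for 9 receptors limit what could be called there, and 2 control pancreas libraries limit every pancreas test. In simulated data, 14 genes left unchanged were called in the pancreas comparison and 22 in the adipose one. The tissue by condition term called 6 unchanged genes and the comparison of control tissues 8. Of 100 genes changed by 1 on the log2 scale, 36 were found in the pancreas comparison and 53 in the adipose one. Of 100 genes changed by 2, 81 and 90 were found. The changed genes were drawn from all levels that passed the filter, and they were far fewer than the genes called in the data. These rates therefore do not tell how often a change of a receptor with so few counts would be found.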
